A study of Oryctolagus cuniculus with 16 samples.

Results

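The genes described here are the 5 that encode the extracellular signals and receptor by which macrophages and osteoclasts are made and kept: *CSF1*, *IL34*, *CSF1R*, *TNFSF11*, which encodes RANKL, and *TNFRSF11B*, which encodes osteoprotegerin (OPG). They were chosen by symbol from the 20255 genes of the deposited count table, and all 5 are listed there by that symbol and were counted in every rabbit. The table holds total RNA-seq of the femoral heads of 8 rabbits. In the Perthes disease group (n = 5), wild-type rabbits were operated on at 8 weeks of age to make the epiphysis ischaemic, by a permanent ligature round the neck of the femur together with division of the ligamentum teres. The control group (n = 3) is labelled wild type, and whether it had sham surgery, and the time from surgery to sampling, are not given in the sources used here. Each library is labelled as the femoral head of 1 rabbit, so cartilage, bone and marrow can all contribute RNA.

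CSF1 and IL34 are secreted cytokines that bind the same receptor tyrosine kinase, CSF1R, which is carried by monocytes, macrophages and osteoclast precursors. CSF1 is made widely by stromal cells, while IL34 is best known from skin and brain, where it maintains Langerhans cells and microglia. RANKL is a TNF family ligand that stromal cells, osteocytes and hypertrophic chondrocytes display or shed, and it binds RANK (*TNFRSF11A*) on precursors to drive them to fuse into bone-resorbing osteoclasts. OPG is a soluble decoy receptor that binds RANKL and keeps it from RANK.

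Library totals were close, from 27331725 to 29461482 counts in the Perthes group and from 26757087 to 28783082 in the control group. Perthes rabbit 4 stood apart from the other 7 rabbits, at -78.4 on the second principal component of log2 CPM, where the others lay between -7.51 and 27.5. It also had the highest summed level of 7 chondrocyte markers, 142860 CPM, against 35221 to 77869 CPM in the other Perthes rabbits and 46147 to 65734 CPM in controls, and the lowest sum of 9 macrophage markers. The collagen genes *COL1A1* of bone and *COL2A1* of cartilage had at least 44666 and 29008 CPM in every library, as a femoral head should. *COL2A1* is one of the 7 chondrocyte markers, and genes this abundant weigh most in their sum. Levels are given below as CPM, counts per 1000000 counts of a library after scaling by the TMM factors of edgeR, and differences as log2 fold changes of Perthes against control rabbits from the quasi-likelihood test of edgeR, fitted over 15305 genes. A gene was called at a Benjamini-Hochberg adjusted p below 0.05 over those genes, which 951 genes reached with higher (6.21%) and 1356 with lower levels in Perthes rabbits (8.86%). With library totals alone in place of the TMM factors the split was 678 and 1705. In 11.2% of the genes every Perthes rabbit was above every control. CPM is not divided by transcript length, so levels are compared between rabbits and never between genes.

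Both ligands of CSF1R had a higher mean in Perthes rabbits, but only the rise of *IL34* passed the test. *IL34* (gene 100347811) stood at 20.5, 24.6, 20.2, 13.1 and 19.7 CPM in Perthes rabbits 1 to 5 and at 3.79, 3.70 and 5.52 CPM in control rabbits 1 to 3. The groups did not overlap, and the lowest Perthes rabbit, number 4, was still above the highest control. Its level rose, to 19.6 ± 4.16 CPM in the Perthes group against 4.34 ± 1.03 CPM in the control group (SD, n = 5 and n = 3), a 4.52-fold change with a log2 fold change of 2.17 (standard error, SE, of 0.26, edgeR adjusted p = 0.0118). Only 10 of the 15305 genes had a smaller p, and a two-sided exact permutation test over the 56 divisions of the rabbits gave p = 0.0357, the smallest that 5 against 3 allow. *IL34* was the least counted member, and its lowest count, 105 in control rabbit 2, has an exact 95% Poisson interval of 85.9 to 127, which covers counting error only. Without control rabbit 2 the adjusted p of *IL34* from edgeR was 0.0519 at a log2 fold change of 2.07, and edgeR called no gene of the table then, with 1624 higher and 2098 lower at an unadjusted p below 0.05. Without Perthes rabbit 4 the log2 fold change of *IL34* was 2.29 with an adjusted p of 0.00429 from edgeR.

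*CSF1* (100338577) stood at 139, 144, 190.2, 76.1 and 145 CPM in Perthes rabbits 1 to 5 and at 93.7, 91.7 and 74.3 CPM in control rabbits 1 to 3. Perthes rabbits 1, 2, 3 and 5 were above every control, while rabbit 4 lay within the control range. The means were 139 ± 40.7 CPM (SD, n = 5) and 86.6 ± 10.7 CPM (SD, n = 3), and the log2 fold change, 0.68, was not called (SE 0.27, edgeR adjusted p = 0.119). The exact two-sided permutation test gave p = 0.107. The call turned on 1 library, since without Perthes rabbit 4 the log2 fold change was 0.84 with an adjusted p of 0.0209 from edgeR.

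Within a library, *IL34* made up a larger part of the counts on the CSF1R ligands in Perthes rabbits. Its share of the *IL34* and *CSF1* counts together was 12.8%, 14.6%, 9.58%, 14.6% and 12.0% in Perthes rabbits 1 to 5 and 3.88%, 3.88% and 6.91% in control rabbits 1 to 3. The lowest Perthes share was above the highest control share, and rabbit 4, which was low in *CSF1*, had the highest share. The share does not depend on the scaling between libraries, but it sets counts of transcripts of different length against each other, so only its differences between rabbits can be read.

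The gene of the receptor that both ligands share, *CSF1R* (100340992), was also called higher, with a smaller margin than *IL34*. It stood at 394, 334, 396, 186 and 431 CPM in Perthes rabbits 1 to 5 and at 157, 178 and 162 CPM in control rabbits 1 to 3. The 3 controls lay close together and every Perthes rabbit was above them, with rabbit 4 only just so. Its level rose, to 348 ± 97.1 CPM in the Perthes group against 166 ± 10.6 CPM in the control group (SD, n = 5 and n = 3), a 2.10-fold change with a log2 fold change of 1.07 (SE 0.27, edgeR adjusted p = 0.0326). The exact two-sided permutation test gave p = 0.0357. With library totals alone in place of the TMM factors, Perthes rabbit 4 at 176 CPM lay inside the control range of 159 to 188 CPM, and the adjusted p became 0.0521. The adjusted p of *CSF1R* from edgeR was 0.0540, 0.0733 and 0.0712 without Perthes rabbit 1, 3 or 5 and 0.112, 0.101 and 0.0779 without control rabbit 1, 2 or 3, while it was 0.0414 and 0.00766 without Perthes rabbit 2 or 4.

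In total RNA of a tissue, more cells that carry CSF1R and more *CSF1R* RNA per cell cannot be told apart. Of the 9 macrophage markers tested, 3 rose and 1 fell, where 6.21% of all tested genes rose and 8.86% fell. With 9 genes these counts are a description only. The lysosomal membrane gene *CD68* rose by a log2 fold change of 2.02 (edgeR adjusted p = 0.0165) and the lipopolysaccharide co-receptor gene *CD14* and the mannose receptor gene *MRC1* by 2.37 and 1.96, while the complement gene listed as *C1QC* fell by 2.09. RefSeq (mOryCun1.1) gives the gene ID of that entry to *C1QA*, so which complement gene it measures is uncertain. The summed level of the 9 markers ranged from 398 to 1677 CPM in Perthes rabbits and from 554 to 1250 CPM in controls, so the groups overlapped, and Perthes rabbit 4 was the lowest of all 8. For every 100 counts on these markers there were 23.5, 38.8, 32.2, 46.8 and 29.1 on *CSF1R* in the 5 Perthes rabbits in order, and 12.6, 26.5 and 29.3 in the 3 controls, with overlapping groups. Per count of *CD68* alone the order turned round, with 0.954, 1.37, 1.17, 1.65 and 1.03 counts of *CSF1R* in Perthes rabbits and 2.21, 2.29 and 2.09 in controls. The 2 ratios were chosen after the values of these genes were known, and the part of macrophage number in the *CSF1R* result was not tested.

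**Figure D1:**
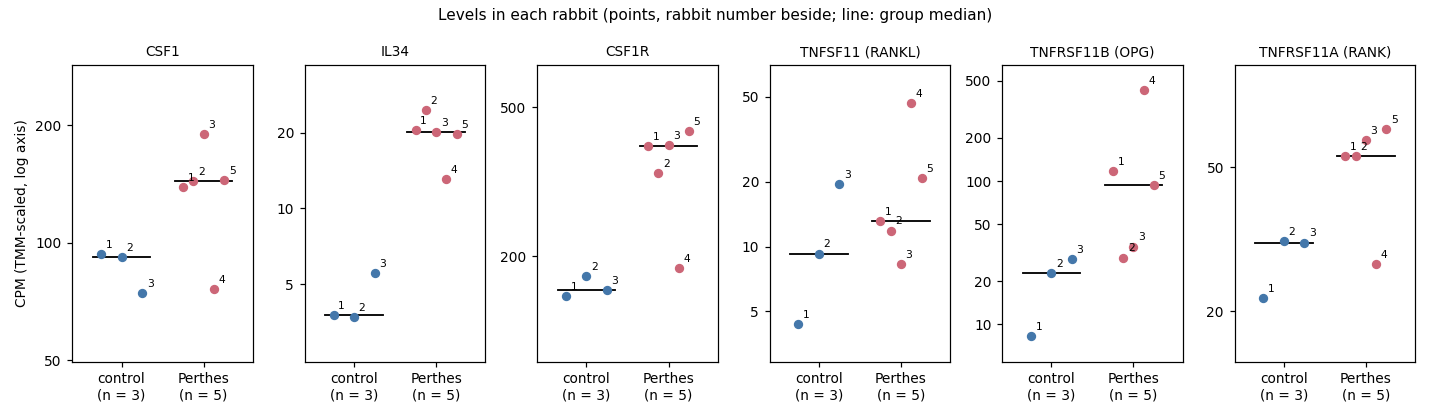
CPM on a log axis of *CSF1*, *IL34*, *CSF1R*, *TNFSF11*, *TNFRSF11B* and the RANK gene *TNFRSF11A* in each control (blue, n = 3) and Perthes (red, n = 5) rabbit, with the rabbit number beside each point and a line at the group median. *IL34* is apart between the groups with 3.70 to 5.52 CPM against 13.1 to 24.6 CPM, and Perthes rabbit 4 is the lowest Perthes rabbit for the first 3 genes and *TNFRSF11A* and the highest for *TNFSF11* and *TNFRSF11B*.

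On the RANKL side neither the ligand nor the decoy was called, and the largest values of both came from Perthes rabbit 4. *TNFSF11* (100341009) stood at 13.2, 11.9, 8.26, 46.6 and 20.9 CPM in Perthes rabbits 1 to 5 and at 4.36, 9.27 and 19.6 CPM in control rabbits 1 to 3. The groups overlapped, because only Perthes rabbits 4 and 5 were above every control. The means were 20.2 ± 15.5 CPM (SD, n = 5) and 11.1 ± 7.79 CPM (SD, n = 3), and the fitted log2 fold change 0.86 (SE 0.64, edgeR adjusted p = 0.384) had an exact two-sided permutation p of 0.321. Rabbit 4 held 46.3% of the summed Perthes CPM. Without it the log2 fold change was 0.29, and without control rabbit 3, the highest control, it was 1.56, with adjusted p-values from edgeR of 0.720 and 0.174.

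*TNFRSF11B* (100348133) had the largest fitted change of the 5 genes and the widest spread within the Perthes group, 14.7-fold from the lowest to the highest rabbit. It stood at 118, 29.2, 34.8, 429 and 93.4 CPM in Perthes rabbits 1 to 5 and at 8.22, 22.8 and 28.4 CPM in control rabbits 1 to 3. Every Perthes rabbit was above every control, though rabbit 2 exceeded control rabbit 3 by less than 1 CPM, and with library totals alone they changed places at 27.4 and 29.7 CPM. The means were 141 ± 165 CPM (SD, n = 5) and 19.8 ± 10.4 CPM (SD, n = 3), with a log2 fold change of 2.83 (SE 0.95) and an adjusted p of 0.0757 from edgeR. DESeq2, the tool of the study, gave 2.85 with an adjusted p of 0.00248, so the call differed between the tools. Rabbit 4 held 60.9% of the summed Perthes CPM, and the other Perthes rabbits had a mean of 68.9 ± 43.8 CPM (SD, n = 4). Without rabbit 4 the log2 fold change was 1.80 with an adjusted p of 0.0779 from edgeR, and without Perthes rabbit 2, the lowest of the group, it was 3.09 with an adjusted p of 0.0436. The exact two-sided permutation test with all 8 rabbits gave p = 0.0357.

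The RANKL to OPG count ratio, which is the number of *TNFSF11* counts per *TNFRSF11B* count in a library, was 0.112, 0.406, 0.237, 0.109 and 0.223 in Perthes rabbits 1 to 5. In control rabbits 1 to 3 it was 0.530, 0.406 and 0.690. The median was thus 0.223 in the Perthes group and 0.530 in the control group, and the groups met at Perthes rabbit 2 and control rabbit 2, which both had 0.406. Perthes rabbit 4 had the most RANKL counts of any rabbit and the lowest ratio, with the most OPG counts as well. Without rabbit 4 the Perthes median was 0.230. No test was made of this ratio or of the *IL34* share.

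**Figure D2:**
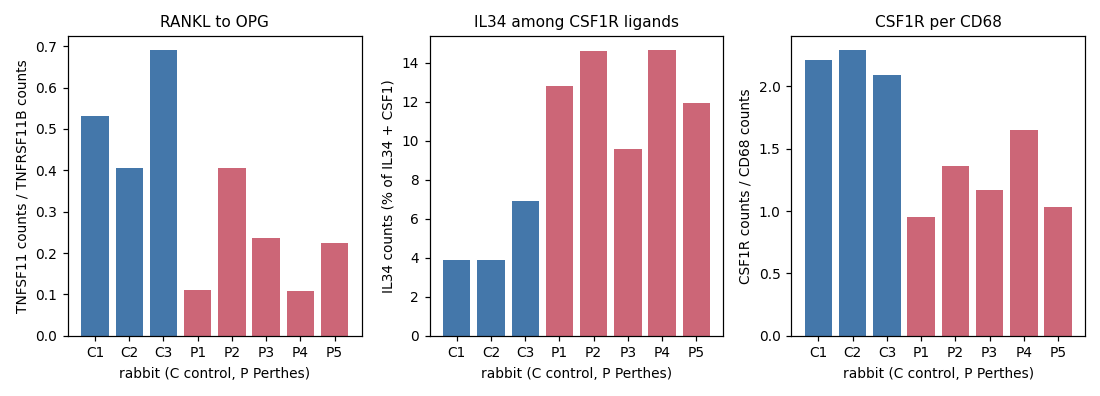
Bars give, for each control (C1 to C3, blue) and Perthes (P1 to P5, red) rabbit, the *TNFSF11* counts per *TNFRSF11B* count, the *IL34* counts as a percentage of *IL34* and *CSF1* counts, and the *CSF1R* counts per *CD68* count. The ratio on the left runs from 0.109 to 0.406 in Perthes and from 0.406 to 0.690 in control rabbits, and the *IL34* share from 9.58% to 14.6% against 3.88% to 6.91%.

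The RANK gene *TNFRSF11A* (100358260), which is not one of the 5 but encodes the receptor that competes with OPG for RANKL, stood at 53.5, 53.6, 59.5, 27.0 and 63.6 CPM in Perthes rabbits 1 to 5. In control rabbits 1 to 3 it stood at 21.8, 31.3 and 31.0 CPM. As for *CSF1*, all Perthes rabbits but number 4 were above every control. The log2 fold change of *TNFRSF11A* was 0.88 (SE 0.28, edgeR adjusted p = 0.0637), and it was 1.04 with an adjusted p of 0.0118 without Perthes rabbit 4. DESeq2 gave 0.87 with an adjusted p of 0.0226.

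Set side by side, 2 of the 5 genes were called higher and none lower, where 6.21% of all tested genes were called higher and 8.86% lower. DESeq2 called 3, with *TNFRSF11B* beside *IL34* and *CSF1R*, where it called 9.74% of genes with an adjusted p higher and 11.0% lower. Without Perthes rabbit 4 edgeR also called 3, with *CSF1* beside *IL34* and *CSF1R*, against 8.36% of genes higher and 9.39% lower. In *IL34*, *CSF1R* and *TNFRSF11B* every Perthes rabbit was above every control, as was so for 11.2% of all tested genes. With 5 genes these shares are a description only. Relative to the control mean, Perthes rabbits 1, 2, 3 and 5 were alike on the CSF1R side and in RANK, with *IL34* at 2.18 to 2.51 on the log2 scale, *CSF1R* at 1.01 to 1.38, *CSF1* at 0.68 to 1.14 and *TNFRSF11A* at 0.93 to 1.18. They were not alike in *TNFRSF11B*, at 2.57, 0.56, 0.81 and 2.24, or in *TNFSF11*, at 0.25, 0.10, -0.42 and 0.91. Perthes rabbit 4 differed from all of them, with *CSF1R* at 0.17, *CSF1* at -0.19 and *TNFRSF11A* at -0.05, but *TNFRSF11B* at 4.43 and *TNFSF11* at 2.07. In *IL34* it was nearer to the others, at 1.59. This was also the rabbit with the highest chondrocyte marker sum and the lowest macrophage marker sum, and its marrow adipocyte and reticular marker sum, 228 CPM, was below the 926 to 2009 CPM of the other 7. The part of these differences in its profile was not tested.

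**Figure D3:**
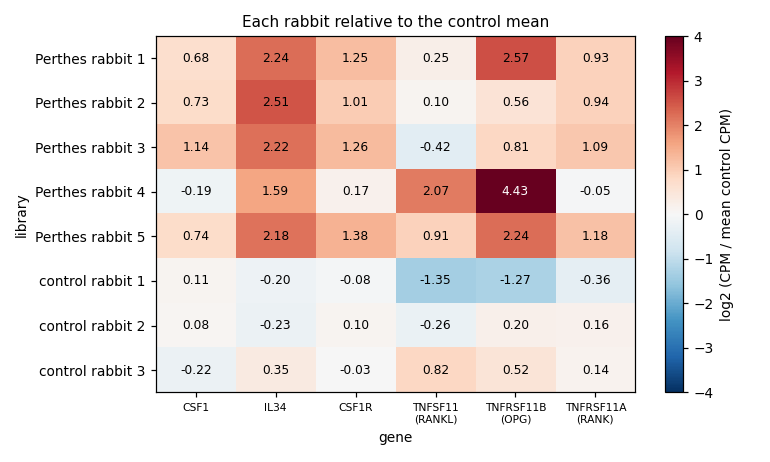
Each cell gives the log2 ratio of a rabbit's CPM to the mean CPM of the 3 controls, with rabbits as rows, genes as columns and the colour from blue (lower) to red (higher). Perthes rabbits 1, 2, 3 and 5 share raised *CSF1*, *IL34*, *CSF1R* and *TNFRSF11A*, while Perthes rabbit 4 has -0.19, 1.59, 0.17 and -0.05 there and 4.43 for *TNFRSF11B*.

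The genes whose levels followed each member most closely over the 8 libraries were found by Pearson's r of log2 CPM, given here with the r of the deviations from the group means, which leaves out the difference between the groups. Nearest to *IL34* were the collagen prolyl hydroxylase subunit gene *P4HA3* (r = 0.992, deviations 0.902), the Dishevelled-binding gene *DACT1* (0.986 and 0.855) and the small leucine-rich proteoglycan gene *PODN* (0.984 and 0.841). Nearest to *CSF1R* were *TMEM106A* (0.997 and 0.992), *RASSF4* (0.995 and 0.987) and *RAB42* (0.995 and 0.990). *TNFRSF11B* was followed by *ERRFI1*, a feedback inhibitor of EGF receptor signalling (0.989 and 0.979), *TIPARP* (0.987 and 0.978) and the growth factor gene *FGF2* (0.979 and 0.961). *TNFSF11* was followed by *NBAS* (0.973 and 0.978), *ZNF385B* (0.970 and 0.967) and the collagen prolyl hydroxylase gene *P3H2* (0.966 and 0.963). *CSF1* was followed by *ZC3H7B* (0.993 and 0.996), *ZNF219* (0.962 and 0.935) and *TCN2* (0.960 and 0.944). With 8 libraries a high r is common: *CSF1R* had 518 genes above 0.9, *IL34* 404, *TNFRSF11B* 166, *CSF1* 156 and *TNFSF11* 74. The r of the deviations does not leave out a single rabbit far from its group. Perthes rabbit 4 had 429 CPM of *TNFRSF11B* and the next Perthes rabbit 118 CPM, and for *TNFSF11* 46.6 and 20.9 CPM. It was also the lowest Perthes rabbit in *CSF1*, *CSF1R* and *IL34*. That rabbit weighs heavily in these r values, and its part in them was not tested.

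The other genes of the 2 pathways were described by 9 lists with 126 genes, of which 116 were matched to the table and 113 were tested. Of these, 11 rose and 6 fell, or 9.73% and 5.31%, against 6.21% and 8.86% of all genes, and their median log2 fold change was 0.10 against 0.02 over all genes. The counts of the single lists below are to be set beside the same shares. With so few genes in each they are a description only. The counts were 17 and 6 without Perthes rabbit 4, 2 and 3 without Perthes rabbit 3, 5 and 2 without Perthes rabbit 5, 2 and 0 without control rabbit 1 and 6 and 5 without control rabbit 3, and no gene was called without control rabbit 2. DESeq2 called 23 and 11, and with library totals alone edgeR called 10 and 10. With 1 rabbit left out at a time, the call of *SDC1* held in 7 of 8 fits, those of *TREM2*, *PIK3CG* and *FGR* in 6, those of *JUN*, *BTK* and *CEBPB* in 5 and those of *PIK3CD*, *MMP14* and *CTSK* in 4. The call of *ADAM10* held in 3, those of *MITF*, *OSTM1*, *DCSTAMP* and *PLEKHM1* in 2 and that of *CA2* in 1.

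Of *TNFRSF11A* itself and the genes below RANK, 24 were tested and 1 rose, with a median log2 fold change of 0.16. This was *JUN*, a subunit of the AP-1 transcription factor, at 1.45 (SE 0.32, edgeR adjusted p = 0.0201). At an unadjusted p below 0.05, 4 genes of this list were higher and 1 lower, and DESeq2 called 3 higher and 1 lower. The adaptor gene *TRAF6*, which carries the RANK signal, stood at -0.15 (edgeR adjusted p = 0.448), with 26.2 to 31.0 CPM in Perthes and 31.6 to 32.9 CPM in control rabbits, and *NFATC1*, the transcription factor that directs osteoclast differentiation, at 0.44 (adjusted p = 0.198). Of 11 tested genes of ITAM co-stimulation, the second signal that osteoclast precursors need, 1 rose and 1 fell. The lipid receptor gene *TREM2* rose and averaged 132 ± 73.3 CPM in the Perthes group against 2.93 ± 0.494 CPM in the control group (SD, n = 5 and n = 3), a log2 fold change of 5.49 (SE 0.82, edgeR adjusted p = 0.0118), although Perthes rabbit 4 had 15.2 CPM and the others 108 to 196 CPM. The kinase gene *BTK* fell by 1.34 (SE 0.29, edgeR adjusted p = 0.0185).

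Among the genes that restrain RANK signalling, the transcription factor gene *IRF8*, whose product opposes osteoclast formation, stood at -0.21 (edgeR adjusted p = 0.745), with overlapping groups. The median log2 fold change of the 10 tested genes of that list was 0.13.

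Below CSF1R, 16 genes were tested, of which 1 rose and 3 fell, with a median log2 fold change of -0.33. Among all tested genes 6.21% rose and 8.86% fell. *MITF*, a transcription factor of osteoclasts and macrophages, rose by 2.05 (SE 0.54, edgeR adjusted p = 0.0363). Perthes rabbit 4, at 17.7 CPM, lay within its control range of 7.68 to 17.9 CPM. The leukocyte kinase genes *PIK3CG*, *FGR* and *PIK3CD* fell by 1.60, 1.75 and 1.75 (edgeR adjusted p = 0.0139, 0.0156 and 0.0245). Neutrophils also use these 3 kinases, and the summed level of 5 neutrophil markers was 4585 to 13378 CPM in controls and 20.9 to 1149 CPM in Perthes rabbits. Of those 5 markers 3 fell and none rose, among them *LCN2* and *S100A8*, and the part of neutrophils in the kinase genes was not tested. Of 5 transcription factors that act on the *CSF1R* gene, *CEBPB* rose by 1.35 (SE 0.29, edgeR adjusted p = 0.0202), and the myeloid master regulator *SPI1* stood at 0.07 (adjusted p = 0.908), a value that changed sign without Perthes rabbit 1 or 5 or control rabbit 2 or 3.

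Other binding partners of these ligands and the proteases that shed them were tested in 8 genes, of which 2 rose and 1 fell. The syndecan gene *SDC1*, whose product also binds IL34, rose and averaged 79.7 ± 12.8 CPM in the Perthes group against 28.0 ± 8.22 CPM in the control group (SD, n = 5 and n = 3), a log2 fold change of 1.51 (SE 0.23, edgeR adjusted p = 0.0118). The membrane metalloproteinase gene *MMP14*, whose product can shed RANKL, rose by 1.44 (SE 0.34, edgeR adjusted p = 0.0258), and the sheddase gene *ADAM10* fell by 0.86 (SE 0.20, edgeR adjusted p = 0.0228). *PTPRZ1*, another receptor of IL34, stood at 0.61 (edgeR adjusted p = 0.119).

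None of 20 tested regulators by which stromal cells set RANKL and OPG was called by edgeR, with a median log2 fold change of 0.32. At an unadjusted p below 0.05, 4 were higher and 1 lower, and DESeq2 called 2 and 1. The list holds, among others, the genes of the vitamin D receptor, the parathyroid hormone receptor and Wnt co-receptors. The cyclooxygenase gene *PTGS2*, named after its values were seen, had 12.2, 7.94, 4.85, 297 and 57.8 CPM in Perthes rabbits 1 to 5 and 3.57 to 7.18 CPM in controls, so that rabbit 3 lay within the control range and rabbit 4, which also led in *TNFSF11* and *TNFRSF11B*, far above the rest. Its log2 fold change was 3.87 (SE 1.45, edgeR adjusted p = 0.103, DESeq2 adjusted p = 0.0183), and it was 2.00 without rabbit 4 (edgeR adjusted p = 0.138). None of the 7 tested genes of other colony-stimulating factors, their receptors and related receptor kinases was called by edgeR either, with a median of -0.38, while 2 were lower at an unadjusted p below 0.05 and by DESeq2. *CSF2*, *IL6* and the chloride channel gene *CLCN7* were removed by the filter on low counts. Of these *IL6*, also named after its values were seen, had 18.6 CPM in Perthes rabbit 4 and averaged 0.0468 ± 0.0549 CPM in controls (SD, n = 3). That value describes 1 rabbit and not the Perthes group, and the filtered edgeR fit did not test *IL6*. The study, using DESeq2, reports *IL6* as significantly upregulated in its rabbit model.

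Of 12 tested genes of osteoclast function, 4 rose and 1 fell, with a median log2 fold change of 1.27. Over all tested genes 6.21% rose and 8.86% fell, and with 12 genes these counts are a description only. The protease gene *CTSK*, which osteoclasts and also activated macrophages express, rose and averaged 2388 ± 988 CPM in the Perthes group against 672 ± 234 CPM in the control group (SD, n = 5 and n = 3), and its Perthes values were lowest in rabbit 4 at 991 CPM. *OSTM1*, *DCSTAMP*, a gene for cell fusion, and *PLEKHM1* rose by 1.61, 1.58 and 1.44 (edgeR adjusted p = 0.0308, 0.0343 and 0.0385). Perthes rabbit 4 lay within the control range for *OSTM1*, at 15.1 CPM against 10.6 to 16.9 CPM. The same held for *PLEKHM1*, at 87.4 CPM against 81.0 to 91.0 CPM. The carbonic anhydrase gene *CA2*, which red cell precursors also express, fell by 1.71 (edgeR adjusted p = 0.0441), and the summed level of 5 erythroid markers was 2081 to 2389 CPM in controls and 23.6 to 928 CPM in Perthes rabbits. The classical osteoclast genes *ACP5* and *MMP9* stood at 0.36 and 0.34 (edgeR adjusted p = 0.592 and 0.558). Without Perthes rabbit 4, 6 genes of the list rose and none fell, where 8.36% of all genes rose and 9.39% fell. The osteoclast differentiation pathway of the deposited annotation includes *CSF1R* and was looked at after the data were seen. It shares genes with the lists above, among them *TREM2*, so it is not a separate observation. Of its 126 tested genes 11 rose and 4 fell, or 8.73% and 3.17%, against 6.21% and 8.86% of all genes.

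**Figure D4:**
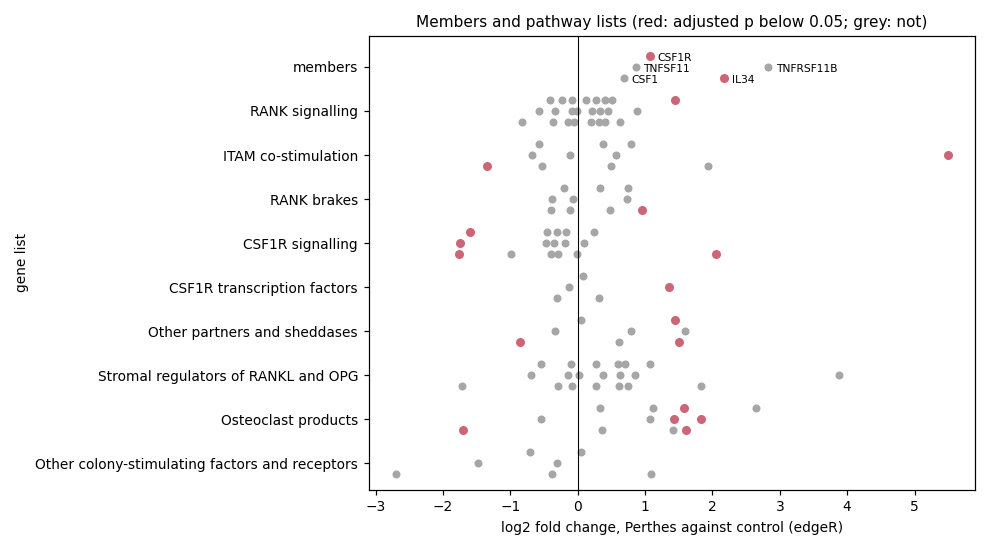
Each point is the log2 fold change of Perthes against control rabbits from edgeR for 1 gene, with the 5 members in the top row and the 9 pathway lists below, red where the adjusted p was below 0.05 and grey elsewhere. *IL34* at 2.17 and *CSF1R* at 1.07 are the red members, and 17 red points stand in the lists, of which *TREM2* at 5.49 lies farthest from 0.

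Markers of cells that could supply the ligands were set beside them. Of the 6 fibroblast and synovium markers *THY1* and *COL3A1* rose, by 1.35 and 2.34 (edgeR adjusted p = 0.0372 and 0.0474), and none fell. Among all tested genes 6.21% rose and 8.86% fell, and with lists this short the calls are a description only. The gene of the joint lubricant, *PRG4*, stood at -1.82 (edgeR adjusted p = 0.154). Without Perthes rabbit 4 the call of *COL3A1* was lost (2.32, edgeR adjusted p = 0.0565) and *PRG4* was called lower (-2.56, edgeR adjusted p = 0.0439). The list's summed level was 12868 to 22658 CPM in Perthes rabbits and 1423 to 8919 CPM in controls, of which *COL3A1* alone made up 11736 to 20732 CPM and 780.5 to 6747 CPM, so the sum mainly follows that gene. Among controls rabbit 3 had the highest sum and the highest *IL34*, but among Perthes rabbits the lowest sum was in rabbit 2, which had the most *IL34*, and rabbit 4, with the least *IL34*, had 18271 CPM. None of the 7 osteoblast, 6 osteocyte, 7 chondrocyte, 5 marrow adipocyte and reticular, 6 endothelial and 4 tested T cell markers was called by edgeR, while DESeq2 called 1 osteoblast, 1 osteocyte and 1 endothelial marker higher, and an unadjusted p below 0.05 was reached by 6 of them upwards and 1 downwards. By edgeR 1 of 4 B cell and 1 of 5 erythroid markers fell, while 3 and 5 were lower at an unadjusted p below 0.05 and DESeq2 called 2 and 4 lower, with median log2 fold changes of -1.62 and -3.12. Summed chondrocyte levels overlapped between the groups and were highest in Perthes rabbit 4, as for *TNFSF11* and *TNFRSF11B*. The other Perthes rabbits did not follow that order, since rabbit 3 had the next highest sum and the lowest *TNFSF11*, and rabbit 1 the lowest sum and the next highest *TNFRSF11B*. The hypertrophic cartilage gene *COL10A1* had 7774 CPM in rabbit 4, but edgeR did not call it. Its relation to *TNFSF11* was not tested. The skeletal muscle markers *ACTA1*, *CKM* and *MYLPF* summed to 9.48 CPM at most. The part of any of these cell types in the members' levels was not tested.

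**Figure D5:**
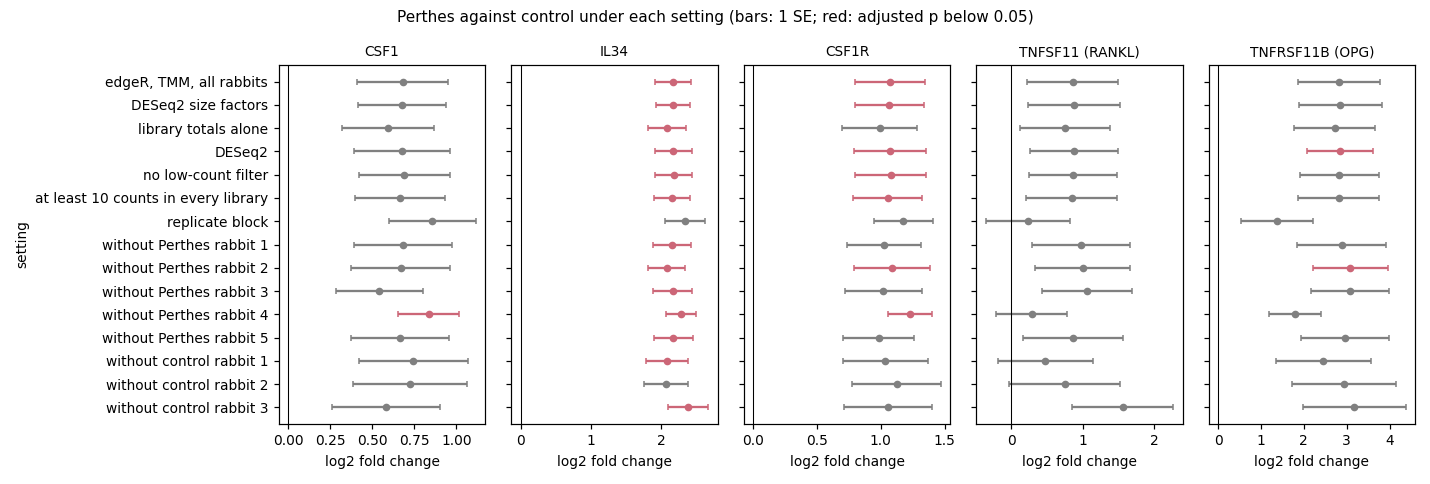
Points give the log2 fold change of each member under each way of processing the counts and with each rabbit left out, with bars of 1 standard error, red where the adjusted p was below 0.05. *IL34* lies between 2.07 and 2.39 throughout, while *TNFSF11* ranges from 0.24 to 1.56 and *TNFRSF11B* from 1.37 to 3.18. Both lowest values came from the fit with a block for the rabbit number.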

How the data were processed

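Total RNA depleted of ribosomal RNA was made into directional libraries and sequenced by the authors, who filtered reads with SOAPnuke, mapped them with HISAT2 2.0.4 and counted with RSEM 1.1.17 and HTSeq 1.99.2. Expected counts, not normalized, were deposited by the authors and rounded to whole numbers here. None of the 40 member values needed rounding. Another 8 columns of per-sample values, identical to those used, were left out, as were the small RNA counts. Samples were grouped by their titles. The third control carries 3 in its code but the number of the second control in its title. It was taken as control rabbit 3.

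The counts were scaled by TMM, filtered with filterByExpr and tested with edgeR 4.0.16 (R 4.3.3), adjusting p after Benjamini and Hochberg. Standard errors are the log2 fold change divided by the square root of F. Log2 CPM used a prior count of 2, and exact permutation tests used scipy 1.17.1. Alternatives were DESeq2 1.42.0, other scalings and filters, a block for the rabbit number, and leaving out each rabbit. The members and lists were chosen with earlier results of these data known. From each list *TNFRSF11A*, *TRAF6*, *NFATC1*, *SPI1* and *IRF8* and up to 4 called genes per direction with the lowest p were named, with 3 genes per member by likeness. A further gene that this rule names is not reported here. Other list genes and markers named in the text were picked after their values were seen. Of 116 pathway genes, 1 was matched by gene ID through RefSeq (mOryCun1.1), as were 2 of the 68 listed markers. The tests were checked on simulated counts, with genes drawn independently and changes larger than those of *IL34* and *CSF1R*. No simulated rabbit was set apart as Perthes rabbit 4 was, so the check does not cover the members' calls. Transcript and protein sequences were not used here. The p-values measure the spread between these samples.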

Additional observations from a re-analysis of the deposited data

Results flagged for a closer look

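In 3 of 31 values checked for a library far from the rest of the 5 Perthes rabbits, 1 rabbit lay beyond Dixon's 95% limit of 0.71 for 5 libraries, where chance alone marks about 5% of such groups. *TNFRSF11B* had 428.5 CPM in Perthes rabbit 4, the next rabbit 118 CPM. *TNFRSF11A* had 27.0 CPM in the same rabbit, the next 53.5 CPM. *CA2* had 375 CPM in Perthes rabbit 2, the next 158 CPM, and that rabbit also had the highest erythroid marker sum of the Perthes group, 928 CPM. The control group of 3 was not checked.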

How the results depend on the processing

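The log2 fold change of every member was above 0 under all 14 alternatives. *IL34* was called in 12 of them. With the replicate number as a block it stood at 2.34 and *CSF1R* at 1.17 (adjusted p = 0.0933 and 0.119 from edgeR), and 0 genes were called higher and 0 lower, against 951 and 1356, with 0 and 0 of the pathway genes. At an unadjusted p below 0.05 the block fit had 1504 genes higher and 1648 lower, of them 22 and 8 in the pathway lists. The labels do not say whether the numbers pair the rabbits. Deviations of same-numbered rabbits correlated at -0.317, 0.161 and -0.238. The 12 pairs with other numbers ranged from -0.314 to 0.435, with a mean of 0.0319. So few same-numbered pairs cannot decide whether the numbers mark a pairing. *IRF8* was reversed, at 0.060, in the block fit. With library totals alone *CSF1R* was at 0.99 (adjusted p = 0.0521 from edgeR), 10 pathway genes were lower. DESeq2 called 1700 genes higher, 23 pathway genes higher and 11 lower, and *TNFRSF11B* at 2.85. Of these differences the cause was not tested.

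With each rabbit left out in turn, the log2 fold change ranged from 0.54 to 0.84 for *CSF1*, from 0.98 to 1.23 for *CSF1R*, from 2.07 to 2.39 for *IL34*, from 0.29 to 1.56 for *TNFSF11* and from 1.80 to 3.18 for *TNFRSF11B*. Genes called higher ranged from 0 to 1267 and lower from 0 to 1628, pathway genes from 0 to 17 and from 0 to 8, with 0 in each case without control rabbit 2, where 1624 and 2098 genes had an unadjusted p below 0.05. *SPI1* ranged from -0.14 to 0.47 and was below 0, at -0.14, -0.0073, -0.061 and -0.12, without Perthes rabbit 1 or 5 or control rabbit 2 or 3. *IRF8* ranged from -0.44 to 0.18 and was above 0 without control rabbit 1. The median RANKL to OPG ratio ranged from 0.167 to 0.230 in the Perthes group and from 0.468 to 0.610 in controls, and the *IL34* share from 12.4% to 13.7% and from 3.88% to 5.40%. With at least 105 counts per member and library, counting error was small beside the spread between rabbits, except for *IL34* in controls. There control rabbits 1 and 2 had 106 and 105 counts, a difference well within the 95% Poisson interval of 85.9 to 127.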
